A study of Mus musculus with 2 samples.

Results

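MicroRNA loci inside introns of genes grouped as neuronal hosts, 7 in number, were followed in the mouse cerebral cortex. They were Mir218-1 in Slit2, Mir218-2 in Slit3, Mir153 in Ptprn2, Mir488 in Astn1, Mir346 in Grid1, Mir383 in Sgcz and Mir326 in Arrb1. These 7 loci are those of the 2202 counted loci whose Ensembl identifier carries one of these names in the GENCODE M21 annotation, and they were chosen for their host genes, not by a threshold on their reads. The libraries were made from small RNA (size range <30 nt) of the left cerebral cortex of B6CASTF1/J females, first-generation hybrids of a C57BL/6 and a CAST parent, aged 14 days. The labels give 1 group with 2 biological replicates, no treatment and no engineered allele, so values can be compared between the replicates and between loci but not between conditions. The label of replicate 1 mentions several females and that of replicate 2 a single female, and both carry the same donor record. Any p-value below therefore compares these 2 libraries and allows for counting error only. Part of the difference between them may be technical.

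A microRNA in an intron is transcribed with the pre-mRNA of its host, cut out as a hairpin by the nuclear enzyme Drosha and trimmed by Dicer to a short duplex with a 5p and a 3p arm. One arm is kept in an Argonaute protein and pairs with messages mainly through its seed, bases 2 to 8. The host transcript and the microRNA can thus share a promoter, although many intronic microRNAs also have promoters of their own. Host messages were not measured in these small RNA libraries. Slit2 and Slit3 encode secreted axon guidance ligands of Robo receptors, Ptprn2 a transmembrane protein of dense-core vesicles, Astn1 a neuronal adhesion protein of glia-guided migration, Grid1 a delta-type glutamate receptor subunit, Sgcz a sarcoglycan and Arrb1 the signalling adaptor beta-arrestin 1.

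The mature sequences are shown because reads are counted for a whole hairpin and only the sequence tells which arms can be told apart. RefSeq (GRCm38.p6) entries were matched for 6 of the 7 loci, and each is written 5′ to 3′ with the seed in capitals. The loci of axon guidance genes come first, then vesicle, migration, receptor and signalling genes.
miR-218-5p, from both Mir218-1 and Mir218-2: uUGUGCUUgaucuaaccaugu
miR-218-1-3p: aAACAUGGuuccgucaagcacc
miR-218-2-3p: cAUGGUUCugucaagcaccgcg
miR-153-5p: gUCAUUUUugugacguugcagcu
miR-153-3p: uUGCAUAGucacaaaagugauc
miR-488-5p: cCCAGAUAauagcacucucaa
miR-488-3p: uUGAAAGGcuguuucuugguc
miR-346-5p: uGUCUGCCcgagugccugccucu
miR-346-3p: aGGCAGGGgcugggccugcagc
miR-326-5p: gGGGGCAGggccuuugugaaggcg
miR-326-3p: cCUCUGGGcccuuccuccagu
Among these arms a seed was shared between loci of the group only in miR-218-5p, whose 21 nt are the same at both Mir218 loci. The 3p arms of the Mir218 loci had different seeds and aligned with 18 identical bases and 1 mismatch. Outside the group, miR-330-5p carried the seed of miR-326-3p.
miR-330-5p: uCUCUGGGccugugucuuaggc
Seeds were also shared by miR-7002-3p with miR-218-5p, by miR-496b with miR-218-1-3p and by miR-7001-5p with miR-346-3p. The seeds of both arms of Mir153 and of Mir488, and of miR-346-5p, miR-326-5p and miR-218-2-3p, were found at no other locus of the RefSeq table.

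The Mir218 hairpins are printed in full because their identity bears on what could be counted. Capitals mark the longest stretch that both hairpins share.
Mir218-1, chr5:48223942-48224051, plus strand: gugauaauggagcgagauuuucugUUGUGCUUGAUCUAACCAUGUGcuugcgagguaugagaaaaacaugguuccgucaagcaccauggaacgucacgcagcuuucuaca
Mir218-2, chr11:35616816-35616925, plus strand: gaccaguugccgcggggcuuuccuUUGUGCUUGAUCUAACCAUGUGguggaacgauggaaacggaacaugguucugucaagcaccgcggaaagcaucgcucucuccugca
The shared stretch covered 22 nt, from position 25 to position 46 of each hairpin, and held the whole of miR-218-5p with 1 further base. Of the 91 windows of 20 nt in each hairpin, 3 also occurred in the other. None of the windows of Mir153, Mir488, Mir346 or Mir326 occurred at another counted locus, and the longest stretch they shared with any was between 10 nt (Mir153) and 14 nt (Mir346). Reads that mapped to several places are tallied in a row of their own that names no gene. They were therefore taken to enter no locus count, although how reads were assigned was not given. A read that lies wholly within the 22 nt matches both Mir218 loci, so the counts of Mir218-1 and Mir218-2 cannot be read as the level of miR-218-5p.

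**Figure D1:**
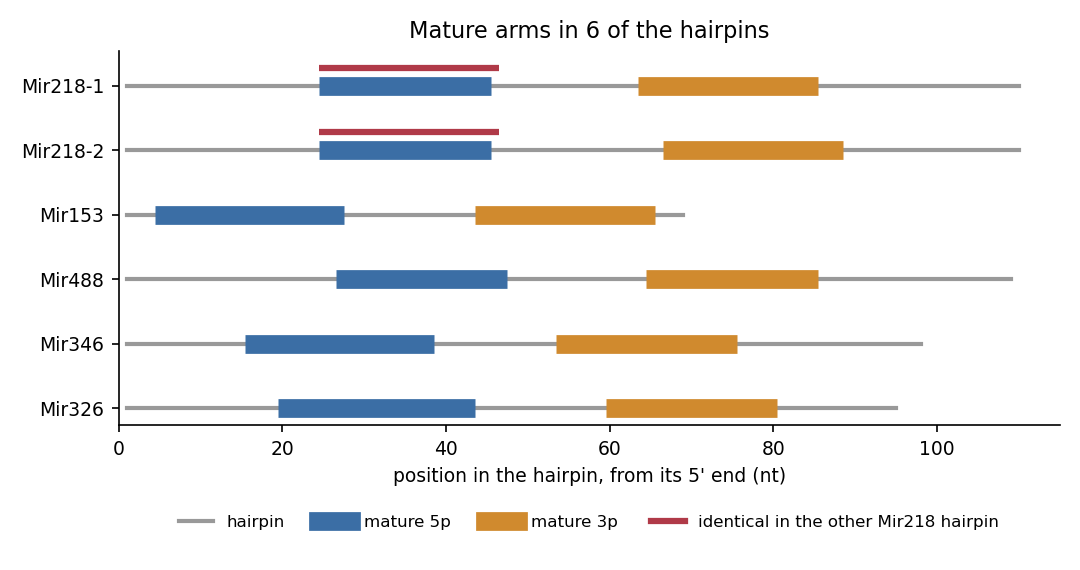
Hairpins of 6 of the loci, drawn from the 5′ end in nt (x axis) with 1 row per locus; blue bars are mature 5p arms, orange bars mature 3p arms and red lines the stretch that is identical in both Mir218 hairpins. The red lines run from position 25 to position 46 and cover the 5p arm of both Mir218 loci, while their 3p arms lie outside it.

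Each library gave a count for 2202 loci. Replicate 1 held 7745369 reads, and 2740332 of them (35.4%) fell on a microRNA locus in sense, and replicate 2 held 9627908 reads with 3207941 (33.3%) in sense. Reads that mapped to several places made up 40.6% of replicate 1 and 37.9% of replicate 2. Levels are given as CPM, the gene-assigned reads of a library scaled to 1000000, and intervals are exact Poisson 95% intervals that cover counting error only. Detection required 10 or more reads in both libraries. Of the neuronal marker loci, Mir132 and Mir137 reached 9108 ± 961 and 7452 ± 1255 CPM (SD, n = 2), whereas the 3 Mir124a loci, whose mature sequence is shared, had between 0 and 12 reads in a library.

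All 7 loci were detected, against 17.7% of the 2202 loci in the table and 14 of the 17 loci of the comparison list described below. Together they held 15152 reads in replicate 1, which was 0.553% of gene-assigned reads (exact binomial 95% interval 0.544% to 0.562%), and 19743 reads in replicate 2, which was 0.615% (0.607% to 0.624%). The mean share was 0.584 ± 0.0442% (SD, n = 2). Mir383 alone supplied 68.8% of these reads in replicate 1 (68.0% to 69.5%) and 61.2% in replicate 2 (60.5% to 61.9%). The median level of the 7 loci was 402 CPM. It was 149 CPM over all 389 detected loci and 69.2 CPM over the 148 other detected loci in introns of protein-coding genes. These medians are a description and were not tested, since the loci were chosen with earlier results of these data known.

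The levels spanned more than 2 orders of magnitude, from Mir383 at the top to Mir218-1 at the bottom. The Mir218 loci lie lowest, and their counts were taken to leave out reads that match both hairpins. Without this pair the means ran from 242 CPM (Mir153) to 3784 CPM (Mir383). The order by mean was Mir383, Mir326, Mir346, Mir488, Mir153, Mir218-2 and Mir218-1. In this order the ranges of Mir326 and Mir346 overlapped between the libraries, as did those of Mir346 and Mir488, so the place of Mir346 was not resolved, while Mir326 lay above Mir488 in both libraries. The other neighbours did not overlap. Of these, Mir488 and Mir153 were close, with 372 CPM as the lower value of Mir488 and 344 CPM as the higher value of Mir153. The other 3 gaps, below Mir383, below Mir153 and below Mir218-2, were between 5.25-fold and 5.45-fold on the means. By library they were less alike: Mir383 over Mir326 was 5.41-fold in replicate 1 and 5.09-fold in replicate 2, Mir153 over Mir218-2 was 3.91-fold and 6.16-fold, and Mir218-2 over Mir218-1 was 8.91-fold and 4.37-fold.

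**Figure D2:**
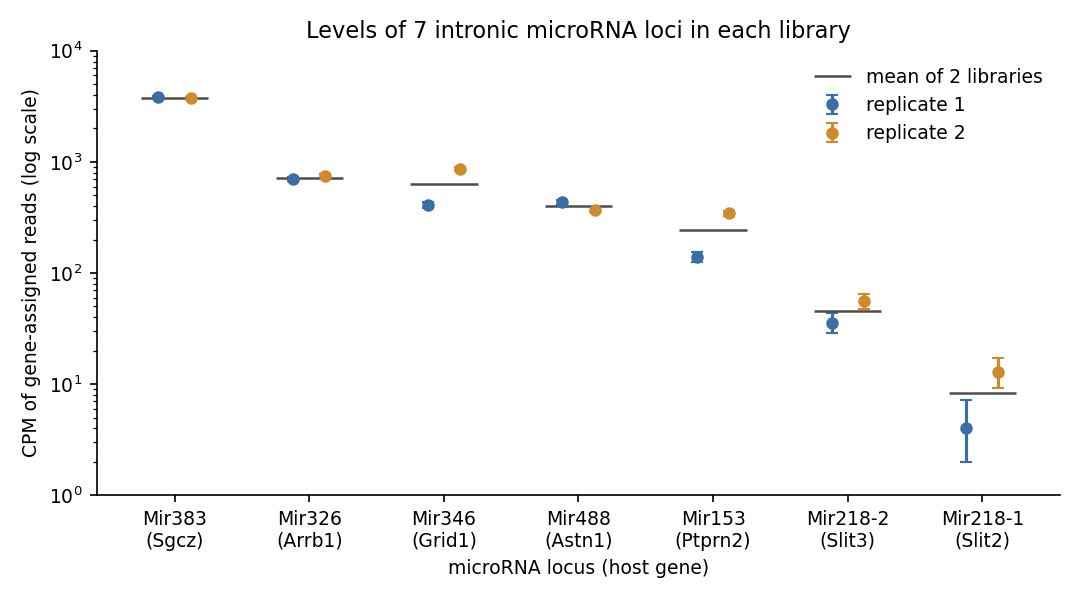
CPM of gene-assigned reads on a log scale (y axis) for the 7 loci with their host genes (x axis), for replicate 1 (blue) and replicate 2 (orange), with exact Poisson 95% intervals and the mean of both libraries as a line. Mir383 lies near 3784 CPM in both libraries, the values of Mir346 lie across those of Mir326 and Mir488, and Mir218-1 lies lowest at 4.01 and 12.8 CPM. Counts of the Mir218 loci were taken to leave out reads that match both hairpins.

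Among the axon guidance hosts, Mir218-2 in Slit3 was higher than Mir218-1 in Slit2 in both libraries. Mir218-2 had 98 reads in replicate 1, or 35.8 CPM (29.0 to 43.6), and 179 reads in replicate 2, or 55.8 CPM (47.9 to 64.6). Mir218-1 had 11 reads in replicate 1, or 4.01 CPM (2.00 to 7.18), and 41 reads in replicate 2, or 12.8 CPM (9.17 to 17.3). No value of Mir218-1 reached the lower value of Mir218-2. Of the reads of the pair, Mir218-2 held 89.9% of 109 reads in replicate 1 (exact binomial 95% interval 82.7% to 94.9%) and 81.4% of 220 reads in replicate 2 (75.6% to 86.3%). These intervals overlap, but overlap is no test, and a difference in the share between the libraries was not tested. miR-218 is known from motor neurons and for acting on Robo messages, which encode the receptors of the Slit proteins. Since the sequence of miR-218-5p lies wholly in the stretch common to both hairpins, these counts are a share of locus-specific reads and not the output of each gene in miR-218-5p.

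Mir153, in the vesicle protein gene Ptprn2, was of middle level and differed widely between the libraries. It had 383 reads in replicate 1, or 140 CPM (126 to 154), and 1102 reads in replicate 2, or 344 CPM (324 to 364). Replicate 2 was the higher library, and the counting intervals do not meet. miR-153 is a neuronal microRNA described as acting on messages of synaptic vesicle proteins. Its hairpin is the shortest of the 6 examined, at 69 nt, and folded with a minimum free energy of −30.8 kcal/mol.

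Mir488, in the migration gene Astn1, had 1185 reads in replicate 1, or 432 CPM (408 to 458), and 1193 reads in replicate 2, or 372 CPM (351 to 394). Replicate 1 was the higher library by a narrow margin. The mean was 402 ± 42.8 CPM (SD, n = 2), a coefficient of variation of 10.6%.

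Mir346, in the glutamate receptor gene Grid1, had 1130 reads in replicate 1, or 412 CPM (389 to 437), and 2773 reads in replicate 2, or 864 CPM (833 to 897). Replicate 2 was the higher library, and its mean of 638 ± 320 CPM (SD, n = 2) has a coefficient of variation of 50.1%. Mir346 changed places with Mir326, standing below it in replicate 1 and above it in replicate 2. It also stood above Mir488 in replicate 2 and below it in replicate 1, but there the counting intervals of Mir346 and Mir488 overlap.

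Mir383, in the sarcoglycan gene Sgcz, was the most abundant and the steadiest of the 7 in CPM. It had 10420 reads in replicate 1, or 3802 CPM (3730 to 3876), and 12080 reads in replicate 2, or 3766 CPM (3699 to 3833). These intervals overlap, and the coefficient of variation was 0.688%. By mean CPM it held place 49 of all 2202 loci, with 87.4% of the detected loci below it. Its position is chr8:38252133-38252202 on the minus strand of mm10.

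Mir326, in the beta-arrestin gene Arrb1, was also close between the libraries. It had 1925 reads in replicate 1, or 702 CPM (671 to 735), and 2375 reads in replicate 2, or 740 CPM (711 to 771). The intervals overlap, and the mean was 721 ± 26.8 CPM (SD, n = 2). The locus that shares its 3p seed, Mir330, was far more abundant, with 20593 reads (7515 CPM) in replicate 1 and 30095 reads (9381 CPM) in replicate 2. Mir330 overlaps an exon of Eml2. The other loci that share a seed with one of the group were at or near 0, with 0 reads for Mir496b and Mir7001 in both libraries, and 1 read in replicate 1 and 0 in replicate 2 for Mir7002. At 0 reads the limit is 3 reads, or 1.09 CPM for replicate 1 and 0.935 CPM for replicate 2. Arms are not counted apart in these files, so none of these values is the level of a seed.

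No read was counted on the opposite strand of any of the 7 loci in either library. For Mir383 this allows an opposite share of at most 0.0288% of its reads in replicate 1 and 0.0248% in replicate 2. For Mir218-1, with few reads, it allows up to 27.3% in replicate 1 and 7.32% in replicate 2. The counts without regard to strand were the same as those on the RNA strand at all 7 loci.

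The loci sit in long genes. The 7 hosts had a median length of 587 kb, against 59.3 kb for the 128 other protein-coding hosts of detected intronic microRNAs. Sgcz spans 1139 kb, more than 97.7% of those hosts, Ptprn2 791 kb, Grid1 763 kb, Slit3 587 kb, Astn1 330 kb and Slit2 325 kb. Arrb1 was the exception at 71.3 kb, with 52.3% of the other hosts shorter. The introns that hold the loci were less unusual, with a median of 9.57 kb against 6.50 kb for the introns of the 148 other loci. The comparison list of other neuronal-host microRNAs (17 loci) had a median host length of 137 kb over 10 hosts and a median intron length of 33.5 kb over 13 detected intronic loci. The lengths were not tested, and no length was set against a level.

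The position within the host differed from locus to locus. Mir383 lies in intron 1 of 7 of Sgcz, which measures 708 kb, 409 kb downstream of the exon before it. Mir346 (chr14:34894609-34894706, plus strand) lies in intron 2 of 15 of Grid1, of 123 kb, and Mir326 (chr7:99552269-99552363, plus strand) in intron 1 of 15 of Arrb1, of 46.5 kb. Mir218-1 lies in intron 16 of 38 of Slit2 and Mir218-2 in intron 14 of 35 of Slit3, at 74.2% and 84.4% of the gene's length from its start. Mir153 (chr12:117250817-117250885, plus strand) lies near the end of Ptprn2, in intron 19 of 22 and 96.7% into the gene. Mir488 (chr1:158505625-158505733, plus strand) lies in intron 5 of 22 of Astn1, only 0.155 kb from the exon before it. All 7 lie on the strand of their host, overlap none of its annotated exons and are the only counted microRNA locus assigned to it. Intron numbers refer to the coding transcript with the most exons.

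**Figure D3:**
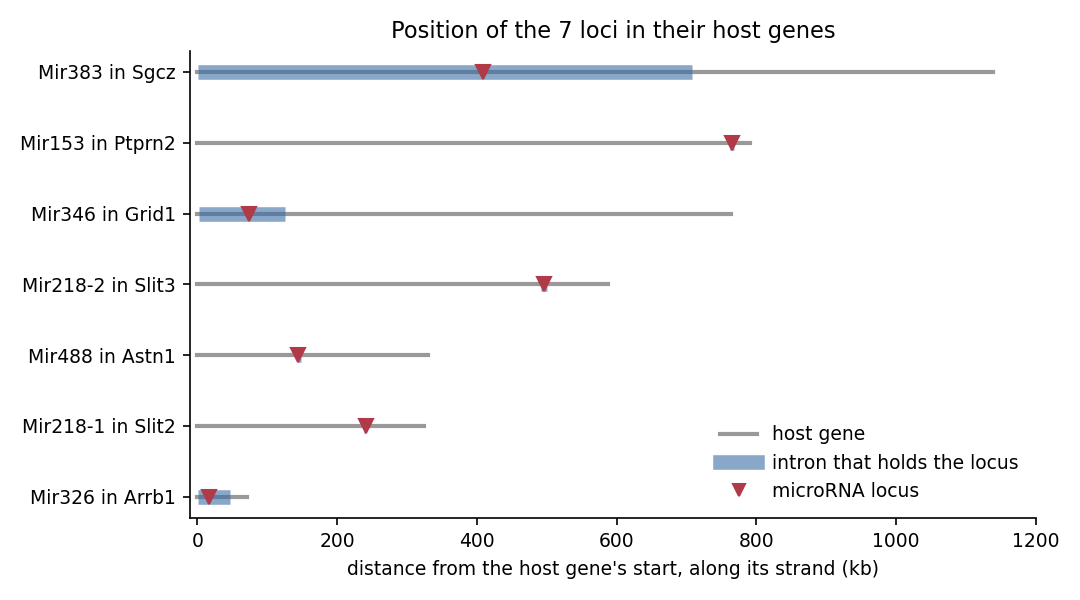
Host genes drawn to scale from their start along their own strand in kb (x axis), 1 row per locus, with the intron that holds the locus in blue and the locus as a red triangle. Mir383, Mir346 and Mir326 lie in long introns of the first part of the gene, and Mir153 lies near the end of the 791 kb Ptprn2.

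The hairpins differed in base composition. GC content was 42.0% in Mir153, 42.2% in Mir488, 45.5% in Mir218-1 and 54.5% in Mir218-2, against 60.0% in Mir326 and 65.3% in Mir346. The predicted fold followed the same split, with minimum free energies of −49.7 kcal/mol for Mir346 and −50.8 kcal/mol for Mir326, and between −42.3 and −30.8 kcal/mol for the other 4. Among the arms, miR-346-3p had the highest GC content at 77.3% and miR-153-3p the lowest at 36.4%.

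The remaining question was whether the replicates differed at these loci by more than counting error. Of the 7 loci, 4 passed the test below as lower in replicate 1 than in replicate 2 and 2 passed as higher. The test was a two-sided exact binomial test of reads scaled by the trimmed mean of M values (TMM), with Benjamini-Hochberg adjustment across all 389 detected loci and a threshold of 0.05. Over all detected loci 58.4% passed this test, 28.8% lower and 29.6% higher in replicate 1, so a pass is common in this pair of libraries. The test covers counting error only and compares these libraries, not conditions.

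Mir218-1 had a log2 ratio (replicate 1 over replicate 2) of −1.50, with an adjusted p of 0.00229 in the exact binomial test. Its absolute ratio was larger than that of 94.9% of detected loci, but it rests on 11 and 41 reads. Mir153 followed at −1.12 (adjusted p = 6.78e-43, exact binomial test), beyond 91.8% of detected loci. Mir346 stood at −0.90 (adjusted p = 2.08e-73, exact binomial test), beyond 85.1%, and Mir218-2 at −0.47 (adjusted p = 0.0164, exact binomial test), beyond 58.4%. These 4 loci, of 2 axon guidance genes, a vesicle gene and a receptor gene, were lower in replicate 1.

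Mir488 was higher in replicate 1, with a log2 ratio of 0.39 (adjusted p = 1.55e-10, exact binomial test), and 48.6% of detected loci had a smaller absolute ratio. Mir383 had a log2 ratio of 0.19 (adjusted p = 2.04e-21, exact binomial test), although its CPM differed little. TMM scaling placed the median log2 ratio of all detected loci at 0.0098, and library totals placed it at −0.16. Scaled by library total, the ratio of Mir383 was 0.014 with an adjusted p of 0.554 in the exact binomial test (1.36e-22 to 0.554 over all alternatives), so its difference depends on the scaling. Mir326 had a log2 ratio of 0.097 and did not pass (adjusted p = 0.0511, exact binomial test). With library totals the split over all loci was 77 higher and 159 lower in replicate 1, against 115 higher and 112 lower with TMM.

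**Figure D4:**
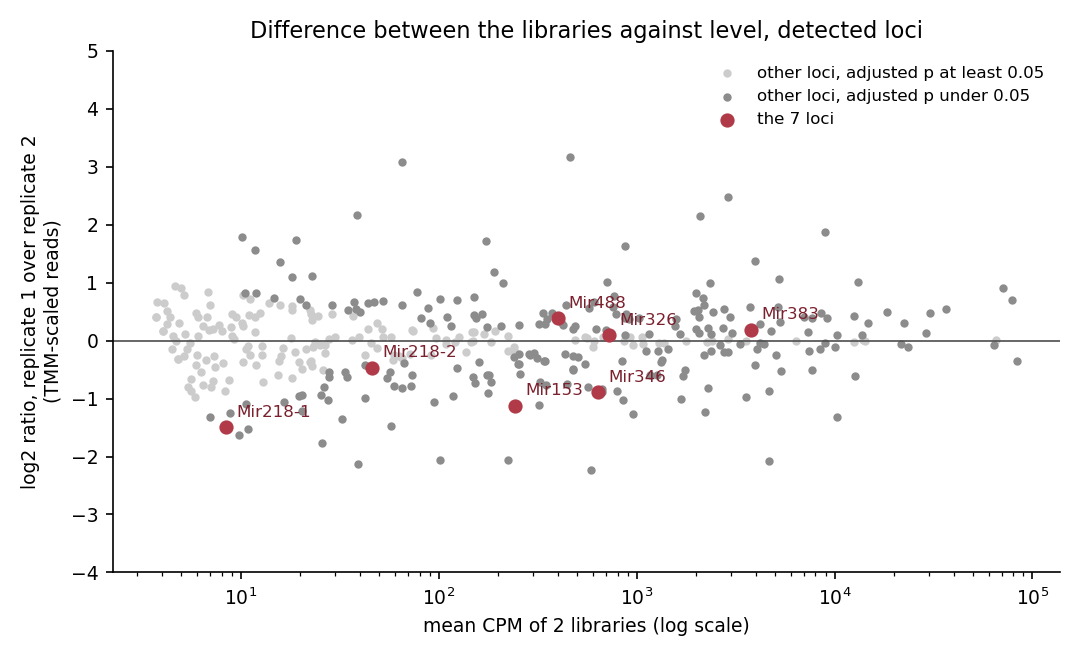
Log2 ratio of TMM-scaled reads, replicate 1 over replicate 2 (y axis), against the mean CPM of both libraries on a log scale (x axis) for the 389 detected loci; red points are the 7 loci, dark grey points other loci with an adjusted p under 0.05 and light grey points the rest. Mir218-1, Mir153 and Mir346 lie lowest of the 7, at −1.50, −1.12 and −0.90, and Mir326 lies close to 0.

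The libraries also differed in loci known from other cell types. In replicates 1 and 2, oligodendrocyte loci (3 of 3 detected) summed to 4275 and 1477 CPM. Mir219a-2 held most of this (3339 and 853 CPM), and Mir338 was also higher in replicate 1 (923 and 613 CPM). Mir219a-1 did not pass the test (12.8 and 10.9 CPM). Endothelial and mural loci (3 of 3) summed to 21215 and 13607 CPM. Most of that difference was in endothelial Mir126a (16741 and 9390 CPM). The mural loci split. Mir143 was higher in replicate 1, at 4345 and 4028 CPM with a log2 ratio of 0.28. The less abundant Mir145a was lower, at 130 and 188 CPM with a log2 ratio of −0.36. Microglial and leukocyte loci (3 of 4) summed to 691 and 1233 CPM. That sum followed Mir150 (518 and 1068 CPM). Mir155 was higher in replicate 1 (121 and 82.6 CPM), and Mir142 did not pass the test (51.1 and 68.3 CPM). Mir223 went the way of Mir150, with 3 reads in replicate 1 and 45 in replicate 2, but missed the read minimum. Erythroid loci (2 of 2) summed to 952 and 564 CPM and endocrine loci (2 of 2) to 276 and 181 CPM. The erythroid sum was mostly Mir451a (908 and 510 CPM), whereas Mir144 did not pass the test (43.4 and 53.6 CPM). The neuronal list (2 of 5) summed to 16357 and 16777 CPM, with called differences in opposite directions: Mir132 was higher in replicate 1 (log2 ratio 0.39) and Mir137 lower (−0.17). None of these marker loci was at 0 in both libraries. The part of such differences in the ratios of the 7 loci was not tested, and in tissue RNA fewer cells of a type and less RNA per cell cannot be told apart.

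A list of 17 other microRNAs in neuronal, receptor or synaptic genes served for comparison. Of these, 14 were detected, with a median of 446 CPM. Highest were Mir139 in Pde2a at 83247 ± 21345 CPM, Mir128-1 in R3hdm1 at 10268 ± 6918 CPM, Mir342 in Evl at 8924 ± 909 CPM and Mir128-2 in Arpp21 at 3574 ± 1909 CPM (SD, n = 2). Mir383, at 3784 ± 26.0 CPM, thus stood beside Mir128-2, whose range of 2224 to 4923 CPM includes both values of Mir383. Mir490, in the muscarinic receptor gene Chrm2, reached 1031 ± 105 CPM, above all but Mir383 of the 7. Mir211, Mir1912 and Mir452 were not detected. Their highest count in a library was 19 reads, for Mir211 in replicate 2. In the between-library test 8 of the 14 were lower and 3 higher in replicate 1, with a median log2 ratio of −0.57. Over all detected loci 28.8% passed as lower and 29.6% as higher in replicate 1. Of the 14 loci 4 lie in 1 host, Htr2c, and 3 of those are among the 8. The median was −0.47 for the 7 loci, which is the ratio of Mir218-2 itself, and −0.20 when a minimum of 50 reads leaves 6 of them. Over all detected loci it was 0.0098. Mir338, in the kinase gene Aatk, also stands in the oligodendrocyte list.

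For each of the 7 loci the detected locus most like it in level was sought, by the smallest distance in log2(CPM + 1) over both libraries. Mir383 was nearest to Mir760 (3761 and 3699 CPM in replicates 1 and 2), Mir326 to Mir673 (704 and 753 CPM) and Mir346 to Mir1249 (435 and 908 CPM). Mir488 was nearest to Mir15b (436 and 396 CPM), Mir153 to Mir101b (193 and 324 CPM), Mir218-2 to Mir551b (33.9 and 51.1 CPM) and Mir218-1 to Mir3083 (4.74 and 12.8 CPM). The distances ran from 0.024 log2 units for Mir326 to 0.47 for Mir153. Likeness over 2 libraries describes level alone.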

How the data were processed

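Small RNA libraries of 2 replicates in 1 group were analysed. The authors deposited whole read counts per microRNA gene on mouse build mm10 with GENCODE M21, per the list deposited with the files. How reads were trimmed, aligned and assigned was not given in the sources used here. There are 3 unnamed count columns per library, whose meaning was read from the values (without regard to strand, RNA strand, opposite strand). The RNA strand (column 3) was used. The 4 rows that name no gene stayed out of library sizes. Besides reads mapped to several places, they held 18.1% and 22.8% unmapped reads and 5.93% and 6.03% reads on no microRNA gene in replicates 1 and 2.

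Names, positions and hosts came from GENCODE M21, in which all 2202 identifiers matched. Where hosts on the same strand overlapped, protein-coding genes were taken first and clone-named genes last. Sequences came from RefSeq (GRCm38.p6) and shared stretches of 20 nt from the GENCODE hairpins. Sharing with other places in the genome was not analysed here. Folding used ViennaRNA 2.7.2.

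Between libraries, each detected locus was compared by an exact binomial test, two-sided (scipy 1.17.1), against library sizes scaled with TMM (edgeR 4.0.16), with a threshold of 0.05 on the adjusted p. On simulated counts for the 389 detected loci, 87.0% of loci changed by 2-fold, 73.5% of those changed by 1.5-fold and 50.5% of those changed by 1.2-fold were recovered. The simulation held counting error only and used library totals without TMM. Its rates therefore do not cover the spread between real libraries. A chi-square test of homogeneity over the detected loci gave 491 per degree of freedom. The libraries thus differed by far more than counting error, and neither is a copy of the other's counts. The replicates were taken as separate from their labels.

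The 7 loci, the comparison and marker lists and the tests were chosen with earlier results of these data known. Named loci were the 7, the locus nearest in level to each, all loci sharing a seed, members of the cell type marker lists, the 4 most abundant and the undetected loci of the comparison list. Mir490 and Mir338 were named after their values were seen. The alternatives were the column without strand, minimums of 5 or 50 reads or none, DESeq2 1.42.0 size factors, TMM or library totals, a pseudocount of 5, and each replicate left out.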

Additional observations from a re-analysis of the deposited data

How the results depend on the processing

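All 7 loci were detected under the column without strand, a minimum of 5 reads, no minimum, and with either replicate left out; a minimum of 50 reads left 6, without Mir218-1. The loci past the between-library test numbered 5 to 7 over the alternatives, of 6 tested with a minimum of 50 reads and 7 otherwise. Over all loci they numbered 211 to 240. With a minimum of 50 reads 211 of 283 passed, and with no minimum 240 of 752, so the share depends on the minimum. The median log2 ratio of the 7 was −0.64 with library totals and −0.20 with a minimum of 50 reads. The mean share of reads was 0.627% in the column without strand, and 0.615% and 0.553% without replicate 1 and without replicate 2. The log2 ratio of Mir326 changed sign to −0.076 with library totals (adjusted p = 0.131, exact binomial test; 0.0413 to 0.206 over its alternatives) and passed the test in the column without strand and with a minimum of 5 reads; the cause was not tested. Mir383 lost its call with library totals, and no other of the 7 loci lost a call or changed sign where it was tested. Adding 5 CPM brought the ratio of Mir218-1 to −0.88, by construction. Mean CPM of Mir383 and Mir326 rose to 4062 and 774 in the column without strand, whose totals are smaller. Of the 7, Mir218-1 has the fewest reads, with 11 in replicate 1. Its count was also taken to leave out reads that match both Mir218 hairpins. A test between libraries needs both, so it has no value with a replicate left out. No paired analysis was possible because the labels give 1 group.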
